A study of Saccharomyces cerevisiae with 8 samples.

Results

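The mitochondrial protein import genes examined here are 35 named genes of the yeast Saccharomyces cerevisiae: the translocases of the outer and inner mitochondrial membranes, the import motor, the processing peptidase and the sorting machinery. They were chosen by symbol and not by a filter on their values, though with earlier results of these data known. Each had 1 probe set in the annotation of the arrays, so that 35 of the 5449 genes on the arrays were followed, and all 35 passed the filter on low signals. TIM11 carries the name of a translocase but encodes subunit e of the mitochondrial ATP synthase, which leaves 34 genes with a part in import.

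Total RNA was hybridised to 8 Affymetrix arrays, with 2 arrays, titled biological replicates, in each of 4 groups. Strain W303 served as the wild type. In the double deletion, strain 6EA1 of W303 background, both RPL12A and RPL12B are missing; their product, protein L12, belongs to the large ribosomal subunit. Plus RPL12A and plus RPL12B were 6EA1 with a high copy plasmid that carries the respective gene, so both still lack the chromosomal copies. A strain with an empty plasmid was not analysed here. Cultures of every group were grown at 30 °C in defined medium with 2% glucose and collected in early log phase, at an A600 of 0.5 to 0.6.

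Most mitochondrial proteins are made on cytosolic ribosomes and enter through the TOM complex of the outer membrane, where receptors pass precursors to a channel. From there, proteins with a cleavable presequence cross the TIM23 complex of the inner membrane and are pulled into the matrix by the import motor, where a peptidase removes the presequence. Carrier proteins are escorted across the intermembrane space by the small TIM chaperones to the TIM22 complex, barrel-shaped outer membrane proteins are inserted by the SAM complex, and small cysteine-rich proteins are trapped in the intermembrane space by Mia40 and Erv1. In yeast grown on glucose the respiratory chain is largely repressed, while import remains essential for growth.

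The RPL12 signals followed the genotypes. All arrays had the same trimmed mean, but the median signal of the S. cerevisiae genes was 613 and 602 in the wild type against 697 and 699 in the double deletion, and the mean log2 signal of the hybridisation controls was 9.79 and 9.68 against 9.28 and 9.40. The RPL12A signal was 5321 and 5269 in the wild type, 28.8 and 6.88 in the double deletion, 6079 and 5732 with plus RPL12A, and 8.18 and 15.5 with plus RPL12B. RPL12B gave 6537 and 7039.7, 17.3 and 1.71, 48.5 and 20.1, and 5469 and 6446 in the same order. Background, set by probe sets for Schizosaccharomyces pombe, lay between 7.42 and 8.72, and the lowest signal of any import gene was 353. The probe set for the 3′ end of the 25S rRNA control had a signal of 148, 277 and 312 on the second arrays of the wild type, plus RPL12A and plus RPL12B, and of 2476 to 5720 on the other 5 arrays. Log2 signals of the 35 genes on the 2 arrays of a group had a Pearson r of 0.986 (wild type), 0.987 (double deletion), 0.974 (plus RPL12A) and 0.970 (plus RPL12B); genes within an array are not independent of each other. The number of arrays limits the precision, and nothing in the labels says that replicates came from separate cultures, so that p-values measure only the spread between these samples. Adjusted p values below come from limma fitted to all 5439 genes tested, 2-sided, with the Benjamini-Hochberg adjustment. A gene is called at an adjusted p under 0.05. SD stands on n = 2 arrays, and SE is the standard error of a log2 difference in the limma fit. With 2 arrays against 2, an exact permutation test cannot give p below 0.333.

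Import genes were expressed at medium to high levels in wild type cells. In percentiles of the wild type log2 signal of all genes tested, they ran from 40.7 (SAM50) to 95.6 (SSC1). SSC1, the matrix Hsp70 that drives the motor, gave 4693 ± 129 (SD, n = 2), and the chaperone gene TIM10 gave 4064 ± 401. Probe sets differ in their response, so these values do not rank the amounts of the mRNAs. A gene very similar to SSC1, ECM10, is on the arrays too, and whether its mRNA binds the SSC1 probe set was not tested. Over the 8 arrays, TIM44 varied least, with a highest signal 1.09 times the lowest, and TIM8 most, with a ratio of 2.16.

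Setting the double deletion against the wild type asks how import genes are expressed in cells that lack both RPL12 genes. Subunits of the TOM complex, a pair of small TIM chaperones, the channel gene TIM23, the motor gene MGE1, ERV1 and OXA1 were lower in the double deletion, by 1.21-fold (TOM40) to 1.76-fold (TOM7). Genes for PAM17, TIM18 and SAM50 were higher, by 1.29-fold to 1.36-fold. In total, 11 of 35 import genes were called lower and 3 higher, which is 31.4% and 8.57%. Of all genes tested, 12.2% were called lower and 20.4% higher, 32.5% in either direction. The median log2 difference was -0.22 over the import genes and 0.14 over all genes tested. Both arrays of the double deletion lay below both wild type arrays for 24 import genes and above them for 7, where 28.2% and 47.3% of all genes tested did so.

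**Figure D1:**
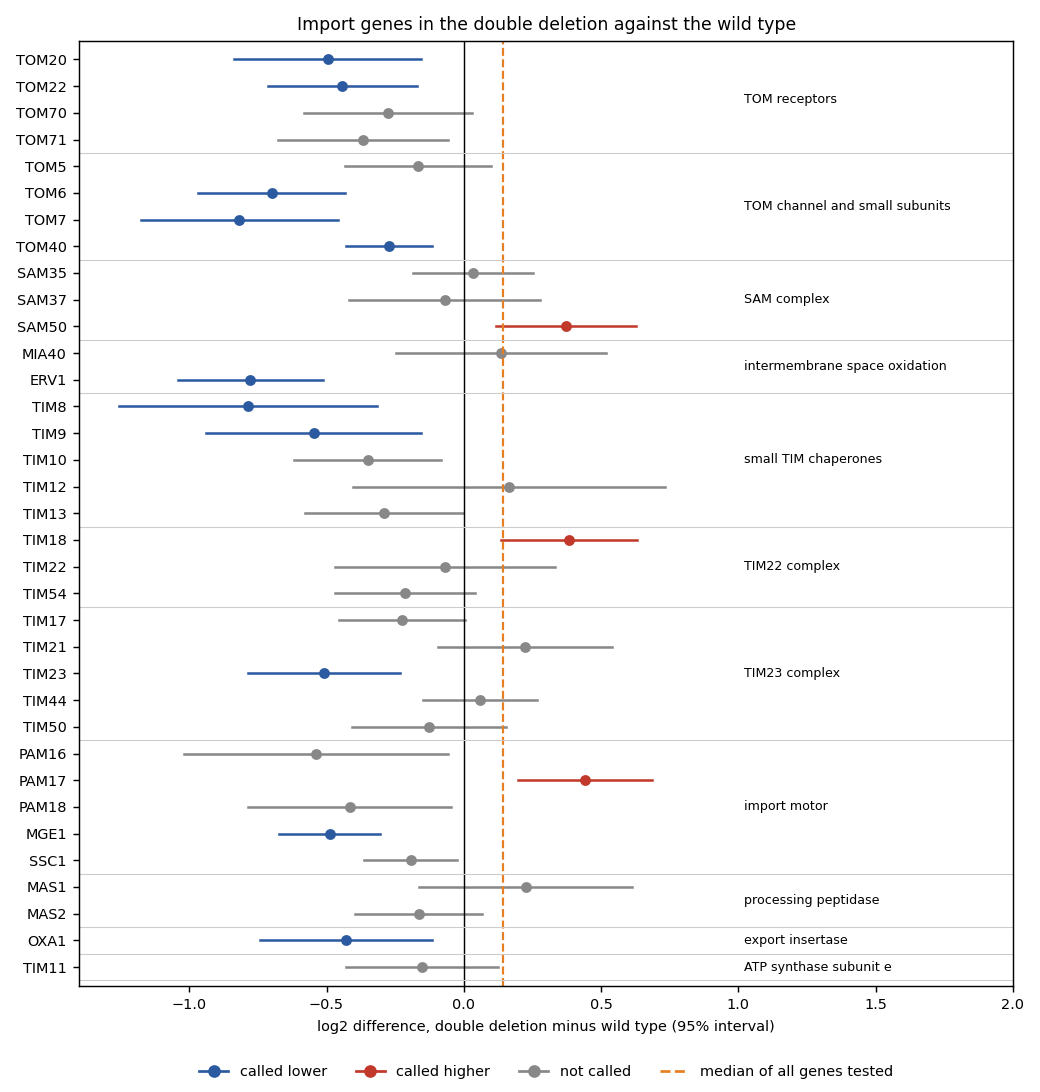
Log2 difference of each of the 35 import genes between the double deletion and the wild type (points, with 95% intervals from limma), grouped by role. Blue marks the 11 genes called lower, red the 3 called higher and grey the rest, and the dashed line is the median of all genes tested, 0.14; most points lie to the left of it.

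These counts moved with the scaling of the arrays and with the level of the signal. The median of all genes was -0.060 after median centring (each array on its S. cerevisiae genes), -0.0032 after quantile normalization and 0.54 after centring on the hybridisation control probe sets. The import genes called lower and higher were then 22 and 0, 9 and 1, and 1 and 8 (all genes: 1206 and 548, 427 and 393, and 65 and 2776). The 9 called lower with quantile normalization included TOM71 and PAM16 but not TOM20, TOM22, TOM40 or TIM9. Relative to the median of all genes, 29 import genes were lower on the deposited scale. Centring shifts all genes of an array alike, so it cannot change this count. With quantile normalization 24 import genes were lower. When all genes were ranked by mean signal into 4 classes of like size, 33.4% of the genes in the top class were called lower and their median log2 difference was -0.20, against 0.39 in the bottom class. The top class held 17 import genes, with a median of -0.29, 8 called lower and 0 higher. The next class down held 12, with a median of 0.045, and the one below it 6, with a median of -0.22, where the medians of all genes were 0.10 and 0.31. The bottom class held 0 import genes. The part of the signal level in the import gene result was not tested beyond these values.

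**Figure D2:**
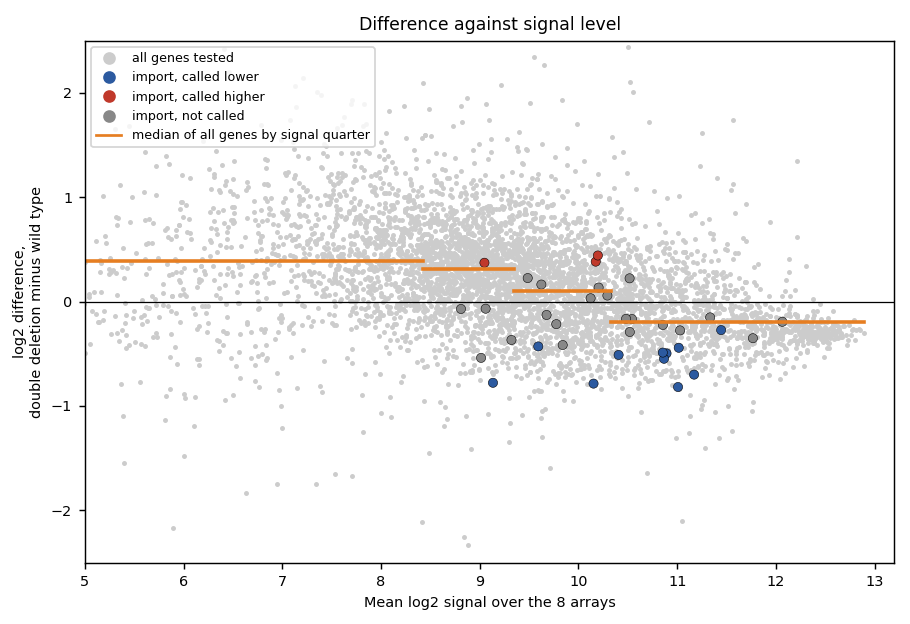
Log2 difference between the double deletion and the wild type (vertical) against mean log2 signal over the 8 arrays (horizontal) for all genes tested (light grey; 153 lie outside the axes) and the 35 import genes (coloured by call). Orange bars are the medians of all genes in each of 4 signal classes, which fall from 0.39 to -0.20; import genes called lower lie below these bars.

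Of the 4 genes for outer membrane receptors that recognise precursors, TOM20 and TOM22 were called lower. TOM20 (YGR082W), the receptor for presequences, gave 2136 and 2598 in the wild type, 1499 and 1861 in the double deletion, 1738 and 1904 with plus RPL12A and 1710.3 and 1937 with plus RPL12B. Both wild type arrays stood above the other 6. In the double deletion TOM20 fell by 0.50 on the log2 scale (SE 0.14, adjusted p = 0.0374), and without wild type replicate 2 the difference was -0.35 and not called (adjusted p = 0.204). TOM22 (YNL131W), the central receptor that also holds the complex together, gave 2729.8 and 2304, 1887 and 1807, 2038 and 1789.9, and 1966 and 2193 in the same order. Its wild type arrays were again the highest, and it fell by 0.44 (SE 0.12, adjusted p = 0.0274). With quantile normalization neither TOM20 (-0.40, adjusted p = 0.107) nor TOM22 (-0.33, adjusted p = 0.0876) was called. TOM70 and TOM71 are related receptors for carrier precursors. TOM70 gave 2317 ± 163 (SD, n = 2) in the wild type and 1927 ± 342 in the double deletion, and TOM71 772 ± 51.0 and 598 ± 29.9. Their log2 differences of -0.28 and -0.37 were not called (adjusted p = 0.143 and 0.0698).

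On the deposited scale TOM7, a small TOM subunit, had the largest fall among the import genes, whereas with quantile normalization ERV1 (-1.01), TIM8 (-0.83) and PAM16 (-0.79) had larger differences than TOM7, as did ERV1 with the 25S split as a block (-0.76 against -0.68). TOM7 (YNL070W), which affects the assembly of the complex, gave 2651 and 3265 in the wild type, 1606 and 1734 in the double deletion, 1758 and 2028 with plus RPL12A and 1721 and 2192 with plus RPL12B. No array of the other groups reached the lower wild type array. TOM7 fell by 0.82 (SE 0.15, adjusted p = 0.0107), and it was the 1 import gene called lower under each of the 4 scalings, at -1.02, -0.70 and -0.42 on the other 3. TOM6 (YOR045W), which stabilises the contact of Tom22 with the channel, gave 3009.6 and 3405, 1967 and 1976, 2039 and 2265, and 1903 and 2283 in the same order. It fell by 0.70 (SE 0.11, adjusted p = 0.00794). TOM40 (YMR203W), the channel itself, went from 3169.7 ± 103 (SD, n = 2) to 2624 ± 28.3, with groups that do not overlap. It fell by 0.27 (SE 0.067, adjusted p = 0.0225), but was not called with quantile normalization (-0.12, adjusted p = 0.238). With the centring on hybridisation controls its difference was 0.12 and not called. TOM5, the subunit that takes precursors over from Tom22, gave 1772 ± 208 and 1573 ± 50.2, a log2 difference of -0.17 that was not called (adjusted p = 0.286).

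**Figure D3:**
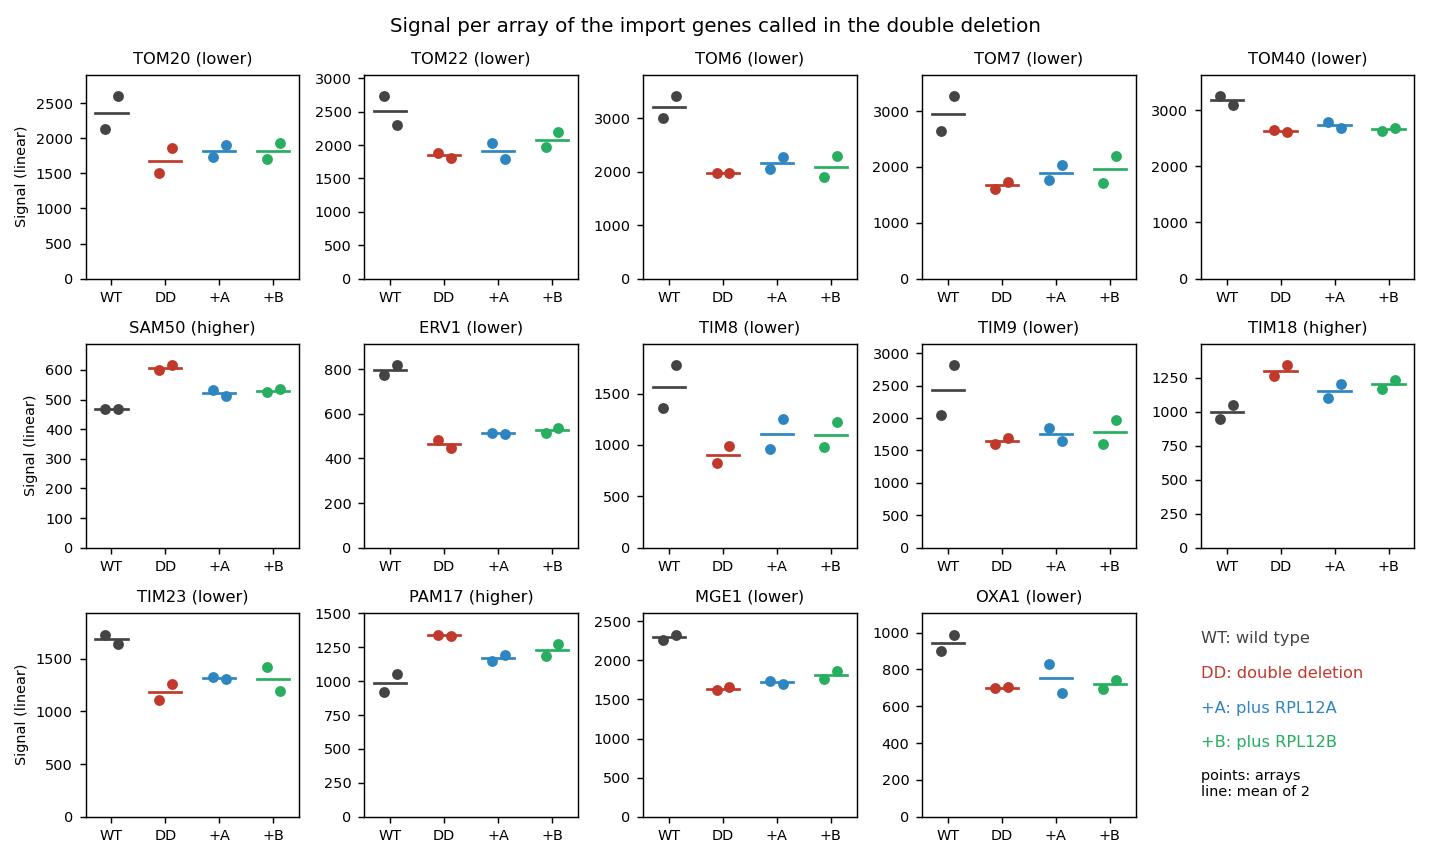
Signal on a linear scale on each array (points, 2 per group) and group mean (line) for the 14 import genes called between the double deletion (DD) and the wild type (WT), with plus RPL12A (+A) and plus RPL12B (+B). In each panel the means of both plasmid strains lie between those of the double deletion and the wild type.

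The SAM complex, which inserts barrel proteins into the outer membrane, held 1 gene that rose. SAM50 (YNL026W), its channel subunit, gave 468 and 468 in the wild type, 598 and 615 in the double deletion, 531 and 510.3 with plus RPL12A and 526 and 534 with plus RPL12B. The double deletion arrays were the highest and the wild type arrays the lowest. SAM50 rose by 0.37 (SE 0.11, adjusted p = 0.0379), but by 0.17 after median centring and 0.087 with quantile normalization, where it was not called. The peripheral subunits were not called. SAM35 gave 1158 ± 9.86 (SD, n = 2) and 1185 ± 37.5, and SAM37 497 ± 0.347 and 474 ± 26.8. Between SAM50 and SAM37 the log2 ratio shifted by 0.44 from the wild type to the double deletion, a value that centring of the arrays cannot move. SAM37 had a log2 difference of -0.070 and SAM35 of 0.032, so the shift is smaller against SAM35.

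Of the disulfide relay in the intermembrane space, ERV1 was called lower and MIA40 was not called. ERV1 (YGR029W), the sulfhydryl oxidase that reoxidises Mia40, gave 774 and 817 in the wild type, 482 and 446 in the double deletion, 515 and 511 with plus RPL12A and 516 and 537 with plus RPL12B. The 6 arrays without chromosomal RPL12 genes lay far under the wild type arrays. ERV1 fell by 0.78 (SE 0.11, adjusted p = 0.00622), the lowest adjusted p among the import genes. Leaving out 1 array at a time, it was called in 7 of 8 fits, the exception being that without wild type replicate 2 (-0.74, adjusted p = 0.0526). MIA40, the import receptor that hands disulfides to its substrates, gave 1121 ± 40.4 (SD, n = 2) and 1231 ± 26.1, a log2 difference of 0.14 (95% interval -0.25 to 0.52) that was not called. The log2 ratio of MIA40 to ERV1 was 0.88 and 0.95 on the double deletion arrays relative to the wild type mean, where the wild type arrays themselves gave 0.076 and -0.076.

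Small TIM chaperones form ring-shaped hexamers in the intermembrane space, Tim9 with Tim10 and Tim8 with Tim13. Of the 5 genes, 2 were called lower. TIM8 (YJR135W-A) gave 1364 and 1773 in the wild type, 822 and 991 in the double deletion, 956 and 1249 with plus RPL12A and 979 and 1223 with plus RPL12B. In every group replicate 2 was the higher array, and both wild type arrays stood above the other 6. TIM8 fell by 0.79 (SE 0.20, adjusted p = 0.0251). TIM9 (YEL020W-A) gave 2046 and 2808, 1597 and 1684, 1846 and 1649, and 1599 and 1962 in the same order. It fell by 0.55 (SE 0.17, adjusted p = 0.0431), and without wild type replicate 2 its difference was -0.32 and not called (adjusted p = 0.222). With quantile normalization TIM9 was not called either (-0.47, adjusted p = 0.0945). The partners of TIM9 and TIM8 had smaller differences that were not called: -0.35 for TIM10 (adjusted p = 0.0515) and -0.29 for TIM13 (adjusted p = 0.107). TIM12, which docks the chaperones on the TIM22 complex, gave 774 ± 9.66 (SD, n = 2) and 868 ± 51.9 and was not called (log2 difference 0.16).

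The TIM22 complex inserts carrier proteins into the inner membrane. TIM18 (YOR297C), a subunit related to a subunit of succinate dehydrogenase, gave 945 and 1051 in the wild type, 1262 and 1339 in the double deletion, 1097 and 1200.4 with plus RPL12A and 1167 and 1235 with plus RPL12B. All 6 arrays of the deletion strains lay above both wild type arrays. TIM18 rose by 0.38 (SE 0.11, adjusted p = 0.0322), and by 0.18 after median centring, where it was not called. TIM22, the channel, gave 545 ± 21.4 (SD, n = 2) and 520.1 ± 38.0, and TIM54, a subunit exposed to the intermembrane space, 968 ± 35.1 and 834 ± 59.2. Neither was called (adjusted p = 0.779 and 0.165).

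In the TIM23 complex, through which presequence proteins cross the inner membrane, 1 of 5 genes was called. TIM23 (YNR017W), the channel subunit, gave 1728 and 1641 in the wild type, 1109 and 1259.8 in the double deletion, 1325 and 1302 with plus RPL12A and 1418 and 1189.7 with plus RPL12B. It fell by 0.51 (SE 0.12, adjusted p = 0.0188). The wild type arrays were the highest here too. TIM17, its related partner, had a log2 difference of -0.22 (adjusted p = 0.119), TIM50, the receptor subunit, of -0.13 (adjusted p = 0.437), and TIM44, which anchors the motor, of 0.059 (adjusted p = 0.636). TIM21, which links the complex to Tom22 and to the respiratory chain, gave 1456 ± 4.05 (SD, n = 2) and 1703 ± 136. Its log2 difference of 0.22 was not called (adjusted p = 0.234).

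The import motor held genes that changed in opposite directions. MGE1 (YOR232W), the nucleotide exchange factor of Ssc1, gave 2264 and 2329.8 in the wild type, 1615 and 1659.8 in the double deletion, 1743 and 1697 with plus RPL12A and 1766 and 1868 with plus RPL12B. Replicates of MGE1 lay close together, and it fell by 0.49 (SE 0.078, adjusted p = 0.00750). PAM17 (YKR065C), which helps to assemble the motor at the translocase, gave 923 and 1052, 1344 and 1334, 1150.3 and 1192, and 1183 and 1273 in the same order. The double deletion arrays were the highest of the 8, and PAM17 rose by 0.44 (SE 0.10, adjusted p = 0.0197), by 0.24 after median centring, where it was not called. Relative to MGE1, PAM17 was higher by 0.96 and 0.91 on the log2 scale on the double deletion arrays, by 0.62 and 0.71 with plus RPL12A and by 0.64 and 0.67 with plus RPL12B. PAM18, the J protein that activates Ssc1, and PAM16, its inhibitory partner, had log2 differences of -0.42 and -0.54. These were not called (adjusted p = 0.0808 and 0.0815), although their double deletion arrays lay below both wild type arrays. SSC1 had a log2 difference of -0.19 (95% interval -0.36 to -0.024, not adjusted for the number of genes) without a call.

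MAS1 and MAS2 encode the subunits of the peptidase that removes presequences. They were not called, with log2 differences of 0.23 and -0.16 (adjusted p = 0.322 and 0.233). OXA1 (YER154W), the insertase for inner membrane proteins that come from the matrix, gave 901 and 989 in the wild type, 699 and 704 in the double deletion, 831 and 672 with plus RPL12A and 692 and 745 with plus RPL12B. OXA1 fell by 0.43 (SE 0.13, adjusted p = 0.0460), and without wild type replicate 2 the difference was -0.36 and not called (adjusted p = 0.214). The ATP synthase gene TIM11 gave 2755 ± 165 (SD, n = 2) and 2479 ± 42.0 and was not called (adjusted p = 0.353).

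**Figure D4:**
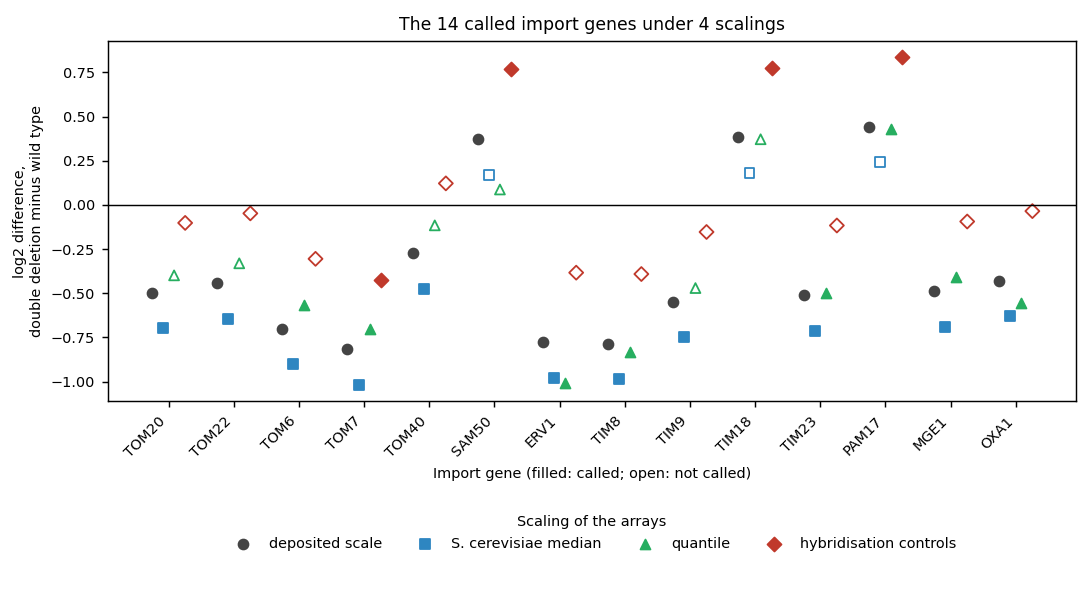
Log2 difference between the double deletion and the wild type for the 14 called import genes on the deposited scale and under 3 other scalings of the arrays (filled, called; open, not called). The 11 genes called lower stay below 0 with the exception of TOM40 with hybridisation control centring, where TOM7 is the 1 gene of them still called.

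Many of these calls were lost in fits with 1 array fewer, while the differences kept their sign. The 14 calls became 5 without wild type replicate 1 (TOM6, TOM7, TIM9, MGE1 and ERV1), 0 without wild type replicate 2, 1 without double deletion replicate 1 (ERV1) and 7 without double deletion replicate 2 (TOM6, TOM7, TOM20, TIM8, TIM23, MGE1 and ERV1). None of the 14 was called in each of the 8 fits that left out 1 array. Of the 5439 genes tested, 478, 256, 238 and 1129 were called in these fits, against 1770 with all arrays. Over the 8 fits the log2 difference ran from -0.83 to -0.72 for ERV1, from -0.51 to -0.47 for MGE1 and from 0.35 to 0.39 for SAM50, and more widely for TIM9, from -0.78 to -0.32. In the fit without wild type replicate 2, the median over the import genes was -0.22 as with all arrays, and that of all genes 0.13. Leaving out an array of a plasmid strain gave 12 to 15 calls. Taking the 25S rRNA split of the arrays as a block gave 17 import genes, and 2179 of all 5439 genes tested. The fit restricted to those 5 arrays whose 25S signal was high holds 1 wild type array. Its median was -0.22 over the import genes and 0.13 over all genes.

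Shorter genes among the 35 tended to have lower differences. Across the import genes, the length of the gene in the RefSeq annotation and the log2 difference had a Spearman rho of 0.41 (n = 35 genes, which share the arrays), against 0.19 over the 5439 genes tested. The mean signal and the log2 difference had a rho of -0.26 and -0.41 over these sets. For the control gene TDH1 the ratio of 3′ to 5′ signal was 1.28 and 1.33 in the wild type and 1.53 and 2.09 in the double deletion. The ratios of the control genes ACT1, WBP1 and RIP1 overlapped between these groups. Whether RNA or labelling quality has a part in the trend with length was not tested.

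The plasmid strains were compared with the double deletion to find whether giving back RPL12A or RPL12B goes with a change of import genes. No import gene was called with plus RPL12A or with plus RPL12B by limma, where 0.221% and 0.11% of all genes tested were called. At an unadjusted p under 0.05, 1 import gene was lower with plus RPL12A and 0 were past it with plus RPL12B. That gene was TIM21, with 1444 and 1179.6 against 1799 and 1607 in the double deletion, a log2 difference of -0.38 (adjusted p = 0.272). The median log2 difference of the import genes was 0.033 with plus RPL12A and 0.031 with plus RPL12B, and that of all genes -0.094 and -0.064. With plus RPL12A, 8 import genes lay above and 9 below both double deletion arrays on both arrays (17% and 34.5% of all genes tested), and with plus RPL12B 5 and 7 (12.3% and 25.7%). None of the import genes was called in these comparisons under any of the alternatives tried.

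**Figure D5:**
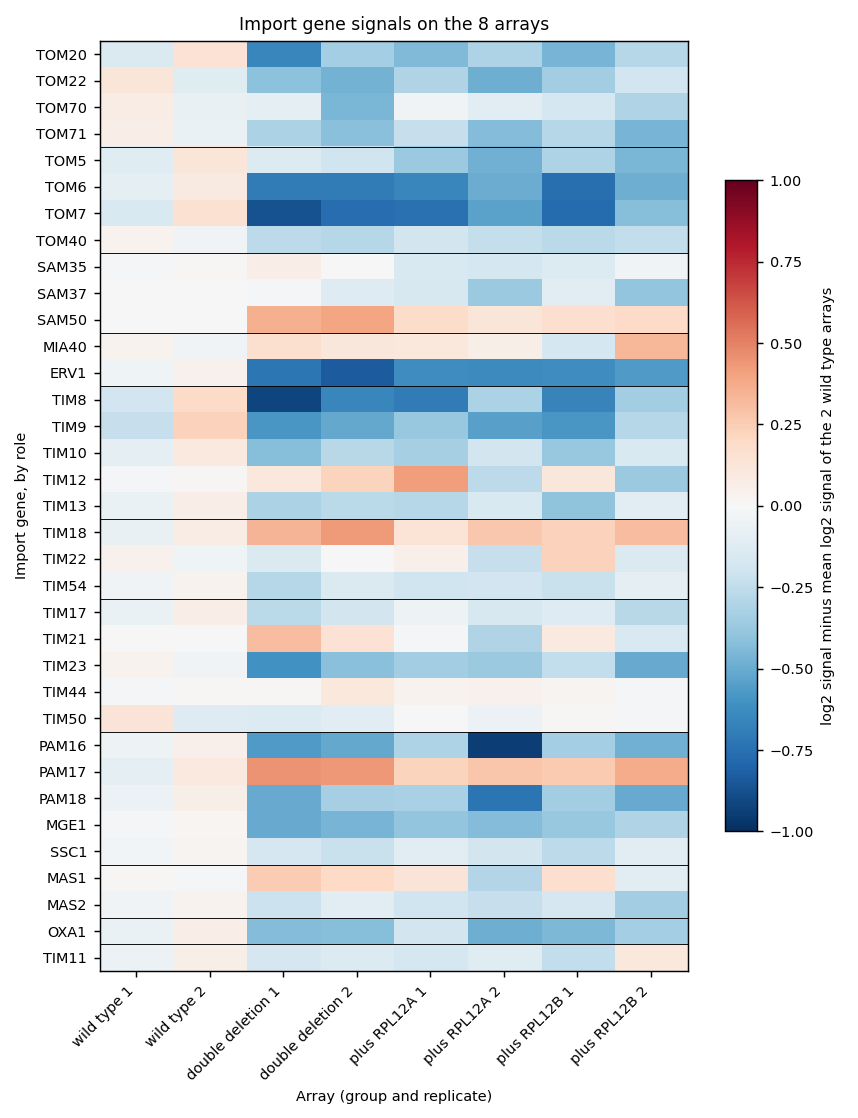
Log2 signal of each import gene (rows, by role) on each of the 8 arrays (columns), minus the mean of the 2 wild type arrays; blue is lower and red higher than the wild type. TOM6, TOM7, ERV1, TIM8 and MGE1 are blue on all 6 arrays of the deletion strains, and PAM17, TIM18 and SAM50 are red on them.

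The means of both plasmid strains lay between those of the double deletion and the wild type for 24 of the 35 import genes (68.6%), against 52.2% of all genes tested. They did so for all 14 import genes called between those 2 groups. Among all 1770 genes called there, 88% had both means in between, and the choice of called genes rests on the same wild type and double deletion arrays. ERV1 was higher than in the double deletion by 0.15 with plus RPL12A (95% interval -0.12 to 0.41) and by 0.18 with plus RPL12B (-0.081 to 0.45). TOM7 was higher by 0.18 (-0.18 to 0.54) and 0.22 (-0.14 to 0.58), and TIM8 by 0.28 with both (-0.19 to 0.75 with each). PAM17 was lower by 0.19 with plus RPL12A (interval of the difference -0.44 to 0.050) and by 0.13 with plus RPL12B (-0.37 to 0.12). Each of these intervals includes 0, and none is adjusted for the number of genes.

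Compared with the wild type, both plasmid strains had lower TOM6, MGE1 and ERV1. With plus RPL12A these 3 import genes were called lower and 0 higher (all genes tested: 1.75% lower and 2.22% higher, 3.97% in either direction), and with plus RPL12B the same 3 lower and 0 higher (3.9% and 5.59%, 9.49% in either direction). Both arrays lay below both wild type arrays for 24 import genes in each plasmid strain (25.6% and 25% of all genes tested) and above them for 5 with plus RPL12A and 3 with plus RPL12B (33.3% and 35.3%). These comparisons share the wild type arrays with each other and with the comparison of the double deletion, so their likeness is no separate evidence. ERV1 fell by 0.63 with plus RPL12A (SE 0.11, adjusted p = 0.0366) and by 0.59 with plus RPL12B (adjusted p = 0.0283). TOM6 fell by 0.57 (SE 0.11, adjusted p = 0.0451) and 0.62 (adjusted p = 0.0257), and MGE1 by 0.42 (SE 0.078, adjusted p = 0.0416) and 0.34 (adjusted p = 0.0423). TOM7 had differences of -0.64 and -0.60 that missed the threshold (adjusted p = 0.0671 and 0.0532), but it was called lower in both with the 25S split as a block (adjusted p = 0.00920 and 0.00755). The medians over the import genes were -0.21 and -0.26, those of all genes 0.040 and 0.069. Without either wild type array no import gene was called in these comparisons, nor without either array of the plasmid strain compared. With plus RPL12A none was called without either double deletion array, and with plus RPL12B none without double deletion replicate 1, 1 without replicate 2 (ERV1) and 1 without either plus RPL12A array (TOM6). Under hybridisation control centring 0 and 2 were called, both of the 2 higher (all 5439 genes tested: 751 and 946 called, 724 and 914 of them higher). Without wild type replicate 2, the median over the import genes was -0.16 with plus RPL12A and -0.21 with plus RPL12B. That of all genes was 0.026 and 0.058.

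Both plasmid strains were also compared with each other, which asks whether import genes differ between these strains. No import gene was called by limma between plus RPL12B and plus RPL12A, where 0.0184% of all genes tested were called. An unadjusted p under 0.05 was reached by 0 import genes and by 93 of the 5439 genes tested. Arrays of plus RPL12B lay above those of plus RPL12A for 3 import genes and below for 3, where 11.6% and 8.4% of all genes tested did so. The largest difference was that of PAM16, higher by 0.21 with plus RPL12B (95% interval -0.27 to 0.69), where the plus RPL12A arrays gave 548 and 353. For ERV1 the difference was 0.036 (-0.23 to 0.30), for TOM7 0.041 (-0.32 to 0.40) and for PAM17 0.068 (-0.18 to 0.31). Differences inside these intervals cannot be told from 0 with 2 arrays per group.

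Other genes of mitochondrial targeting, insertion, folding and quality control, 51 in all and all tested, changed in both directions in the double deletion. Of these, 10 were called higher and 11 lower, which is 19.6% and 21.6%, with a median log2 difference of 0.15. Of all genes tested, 20.4% were higher and 12.2% lower. Those with the largest differences included partners of the disulfide relay. COX19, a cysteine-rich protein of the intermembrane space, went from 259 ± 33.6 (SD, n = 2) to 708 ± 39.7 and rose by 1.45 (SE 0.14, adjusted p = 0.00219). COX17, the copper chaperone and a substrate of Mia40, went from 1271 ± 74.8 to 617 ± 47.9 and fell by 1.04 (SE 0.17, adjusted p = 0.00741). HOT13, which keeps Mia40 free of zinc, went from 1179 ± 99.1 to 465 ± 35.4 and fell by 1.34 (SE 0.14, adjusted p = 0.00257).

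UBX2, which helps to remove precursors stalled in the TOM channel, rose by 1.44 (SE 0.11, adjusted p = 0.00108), from 365 ± 6.52 to 992 ± 78.6. HSP78, a disaggregase of the matrix, rose by 1.25 (SE 0.30, adjusted p = 0.0215) and MDM10, a barrel protein that is part of the SAM complex, by 0.89 (SE 0.16, adjusted p = 0.0101). In the double deletion COX19, UBX2, HOT13 and COX17 were called under each of the 4 scalings. HSP78 and MDM10 were not called with quantile normalization. COX17 lost its call without wild type replicate 2 (adjusted p = 0.0594), and without that array the adjusted p of HSP78 was 0.126 and that of MDM10 0.0702. COX19, UBX2 and HOT13 were called in each of the 8 fits that left out 1 array. In the plasmid strains COX19 and UBX2 were called higher, and HOT13, COX17, HSP10 and EGD2 lower, than in the wild type, and with plus RPL12B MDM10 was called higher as well. Of these, COX19, UBX2 and HOT13 kept their calls under each of the 4 scalings. COX17 and HSP10 were not called with quantile normalization or hybridisation control centring, nor EGD2 with the latter. MDM10 was not called with median centring or quantile normalization. HSP10, the co-chaperonin of the matrix, fell by 0.41 with plus RPL12A and 0.47 with plus RPL12B, and EGD2, a subunit of the nascent polypeptide-associated complex, by 0.33 and 0.43. Without wild type replicate 2, none of these calls in the plasmid strains remained, with adjusted p of 0.0730 (UBX2 with plus RPL12B) to 0.243 (HSP10 with plus RPL12A). The differences themselves stayed close for some: over the 8 fits that left out 1 array, that of EGD2 with plus RPL12A ran from -0.37 to -0.30 and that of HOT13 with plus RPL12B from -1.31 to -1.14.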

How the data were processed

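The values the authors deposited are MAS5 intensities (tool named in the submitters' processing notes, with no version given), linear in scale, with 1 value for each probe set on each array. Each array had a 2% trimmed mean of 500.2. Of 10928 probe sets, 5498 stood for 5449 S. cerevisiae genes and 1746 for S. pombe genes. For 47 genes with several probe sets, that with the highest mean log2 signal was used. Tests covered the 5439 genes whose signal was above the 95th percentile of the S. pombe probe sets on 2 or more arrays. No genome build came with the arrays, so no positions are printed, and gene sequences were not used here.

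Models of the log2 intensities used limma 3.58.1 under R 4.3.3 (group means over all 8 arrays, eBayes with trend, 4 residual degrees of freedom). Replicate numbers of the labels are not said to mark a shared batch and were not used as a block. Data were simulated for the double deletion against the wild type, with 5439 genes of which 50 per size were changed. Of log2 changes of 0.5, 18% were recovered, against 64% of 1, 98% of 2 and 100% of 4. Small changes were thus often missed in that setting. A far larger share of genes, 32.5%, was called in the data, so these rates may not hold there. Alternatives were 3 scalings of the arrays, adding 16 before the log, raising signals under background to it, testing without a filter or with the 99th percentile as its limit, no trend, robust variances, a fit to just the 4 arrays of a comparison, a block for the replicate number or for the 25S split, the mean of probe sets and leaving out each array. After seeing the data, a fit restricted to the 5 arrays of high 25S signal was added. The import genes, their role groups and the list of other pathway genes were chosen with earlier results of these data known. Pairs of genes whose log2 ratio is given were picked by hand, so the size of such a shift is no test. All 35 import genes are named, with RPL12A, RPL12B and, per comparison, up to 6 other pathway genes with the largest called differences whose arrays do not overlap. Labels title the arrays biological replicates. Plots were made in Python 3.11.15 using matplotlib 3.10.9.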

Additional observations from a re-analysis of the deposited data

How the results depend on the processing

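For the double deletion against the wild type, the 14 called import genes became 22 with median centring, 9 with hybridisation control centring, 4 when only the 5 arrays of high 25S signal were fitted, and 0 to 15 without 1 array. The median log2 difference over all 35 import genes, -0.22, became -0.43, 0.17 and, with quantile normalization, -0.27, and TOM40 turned to 0.12 with hybridisation control centring. With plus RPL12A against the wild type, 3 calls became 1 with quantile normalization or without an intensity trend, 0 with hybridisation control centring, on the 4 compared arrays or on the 5 arrays, 5 with the 25S split, and 0 to 4 without 1 array. The median was -0.29 with median centring, 0.033 with hybridisation control centring, -0.16 on the 5 arrays, and -0.26 to -0.16 without 1 array. With plus RPL12B against the wild type, 3 calls became 10 with median centring or the 25S split, 0 on the 4 compared or the 5 arrays, and 0 to 1 without 1 array. The median was -0.37 (median centring), -0.20 (quantile normalization) and -0.025 (hybridisation control centring), and -0.28 to -0.21 without 1 array. Against the double deletion, the medians with plus RPL12A and plus RPL12B were 0.16 and 0.12 with median centring, -0.12 and -0.13 with hybridisation control centring, 0.075 and -0.018 on the 5 arrays, and -0.018 to 0.075 and -0.018 to 0.054 without 1 array. Between the plasmid strains the median was -0.023 on the 5 arrays. Fits with fewer arrays have fewer residual degrees of freedom. The cause was not tested for any of these changes.

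With the replicate number as a block, calls went from 14 to 18, from 3 to 7 (plus RPL12A against the wild type) and from 3 to 9 (plus RPL12B against the wild type), and stayed 0 in the other comparisons. Calls among all 5439 genes tested rose as well in these 3 comparisons, from 1770 to 2363, from 216 to 719 and from 516 to 1219. TOM7 was among the genes called with this block in both plasmid strains against the wild type (adjusted p = 0.0140 and 0.0107). Deviations of same-numbered arrays correlated at 0.050 to 0.79 across genes, each group has only 2 numbers, and the labels do not say what a number marks, so the arrays are taken to share only a number.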
